A study of Drosophila melanogaster with 16 samples.

Results

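The peptidoglycan recognition proteins (PGRPs) are the family through which Drosophila senses, cleaves or masks bacterial cell wall. The genes described here are PGRP-SA, PGRP-SD, PGRP-SB1, PGRP-SC2, PGRP-LA, PGRP-LB, PGRP-LC, PGRP-LE and PGRP-LF, chosen by name. They are 9 of the 16727 genes in the deposited table, and all 9 had the mean of at least 10 normalised read counts over the 16 libraries that was needed to enter the tests, as 7824 genes did. RNA came from Drosophila melanogaster females collected at the passage from the last larval stage to the prepupa, from 1 balanced knock-out stock of dLmx1a, which encodes a LIM homeodomain protein. The 4 groups were fat body with ovaries labelled homozygous (titled Homoz, with delta1 over a second dLmx1a allele), fat body with ovaries of heterozygotes (dLmx1a delta1 / TM3-GFP), fat body labelled homozygous, and fat body of heterozygotes, with 4 libraries in each. All groups carry the delta1 allele, and those labelled homozygous were picked by the absence of TM3-GFP, a balancer of the third chromosome. In the libraries titled Homoz the number of that second allele counts up over the samples, and the titles were followed. The larval fat body is the main organ of systemic immune response as well as of storage.

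PGRPs share a domain related to bacterial amidases. Those that kept the enzyme activity (PGRP-SB1, PGRP-SC2 and PGRP-LB among these genes) cut peptidoglycan, and the others sense it or tune the signal. PGRP-SA and PGRP-SD are secreted and act upstream of the Toll pathway, PGRP-LC in the membrane and PGRP-LE inside and outside the cell start the Imd pathway, and both pathways end in NF-kappaB factors that switch on antimicrobial peptide genes in the fat body.

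The libraries held 19022106 to 32755588 reads on genes. The labels do not state whether replicates are separate collections of animals, and p-values here describe the spread among libraries, which may be technical. dLmx1a itself, listed as CG32105, had 564 to 742 normalised counts with ovaries in libraries labelled homozygous and 518 to 723 in heterozygous ones, and at most 4.59 and 23.5 in fat body, so the whole-gene count does not check the genotype labels. The 11 fat body markers took 52.3% to 55.5% of the normalised counts in fat body with ovaries labelled homozygous and 50.8% to 52.3% in heterozygous fat body with ovaries. They took 57.2% to 60.0% in fat body labelled homozygous and 54.5% to 58.25% in heterozygous fat body. The 10 germline markers summed to 2253 to 2766 normalised counts with ovaries and 23.4 to 39.8 without them in libraries labelled homozygous. They summed to 1971 to 2915 with ovaries and 50 to 189 without them in heterozygotes, so each heterozygous fat body library lay above each one labelled homozygous. AGO3 was the germline marker called between genotypes, lower in fat body labelled homozygous (log2 fold -1.49 ± 0.23, SE, adjusted p = 0.0015), and the part of germline RNA in the genotype folds of fat body was not tested. The 8 ovarian somatic markers summed to at least 2402 with ovaries and at most 213 without. The 11 hemocyte markers, which mark blood cells that also express immune genes, summed to 1593 to 2930 and 1585 to 3052 with ovaries (labelled homozygous and heterozygous) and to 1555 to 2253 and 1762 to 2191 in fat body, so the summed levels overlapped. Of 9 tested hemocyte markers Pxn, a peroxidasin gene, was called higher with ovaries in libraries labelled homozygous (445 to 620 normalised counts with ovaries and 103 to 265 without, log2 fold 1.77 ± 0.32, adjusted p = 0.000565) and in heterozygotes (1.53 ± 0.32, adjusted p = 0.00209). The scavenger receptor gene crq was called lower with ovaries in heterozygotes (-0.46 ± 0.15, adjusted p = 0.0326). None was called between genotypes by limma, and the part of hemocytes in the tissue folds was not tested. The lineage gene gcm was at 0 in both groups labelled homozygous, where 0 reads allow up to 2.34 to 4.59 normalised counts by counting error alone. Neither heterozygous group had it at 0 in every library, and whether it differs between genotypes cannot be read from this. The 12 gut markers summed to between 6.45 and 85.0 and none of them entered the tests. A pair of fat body libraries stood apart. Replicate 2 of heterozygous fat body held those 189 germline counts, against at most 63.4 in the other 3, and replicate 1 of fat body labelled homozygous had the fewest reads and the lowest value of its group for 6 of the 9 members. Calls that change without this pair are given beside the gene. The members' own low values are part of what set the library labelled homozygous apart, so calls gained without it are no separate support. Heterozygous fat body replicate 1 was lowest of its group for 5 of the 9 members and stayed in the fit without the pair.

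Of the 9 genes, 6 lie on chromosome 3, the chromosome that the TM3-GFP balancer and dLmx1a (arm 3L, 12329232 to 12335901 of dm6) belong to. PGRP-LA (arm 3L, 9334332 to 9338336), PGRP-LC (9338810 to 9348336) and PGRP-LF (9349609 to 9351489) follow each other on the plus strand, with 473 and 1272 bases between them. PGRP-SD is on the same arm at 7651180 to 7651900, and PGRP-SB1 at 16727299 to 16727989 on the minus strand, 10 bases from PGRP-SB2. PGRP-LB is on arm 3R (11452849 to 11460552, minus strand). PGRP-SA (11561643 to 11562779) and PGRP-LE (15801153 to 15803880, minus strand) are on the X, and PGRP-SC2 is on arm 2R (8716950 to 8717695). The sources used here do not say whether counting used strand, and 602 exon bases of PGRP-LF, 44.4% of its total, lie opposite exons of UGP, a gene with a mean of 2708 normalised counts against 28.2 for PGRP-LF. The PGRP-LF counts are therefore uncertain. PGRP-SD shares 35 exon bases, 4.85%, with the opposite gene CG7492. PGRP-SC2 has close relatives beside it, PGRP-SC1a and PGRP-SC1b, and reads from shared sequence could have been lost or split.

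Levels between genes were compared as normalised counts per kb of exon. PGRP-SB1, a secreted amidase, was highest in each group, at 19955 per kb in fat body with ovaries labelled homozygous, 6566 in the same tissue of heterozygotes, 28010 in fat body labelled homozygous and 11170 in heterozygous fat body. It alone made up 84.5%, 68.0%, 84.9% and 72.7% of the summed level per kb of the 9 genes in these groups, in the same order, and its percentile among 7734 placed genes was 97.6 or higher. PGRP-SD followed with 1845 to 3325 per kb as group means and PGRP-SA with 559 to 1427. In all 4 groups the libraries of these 3 genes did not overlap with the next gene in the order. PGRP-LE held 197 to 234 per kb and PGRP-LC 102 to 234. They did not overlap with ovaries present, but their ranges crossed in both fat body groups, where PGRP-LC had the higher mean in heterozygotes and PGRP-LE in those labelled homozygous. PGRP-SC2 (62.7 to 107 per kb) overlapped with PGRP-LB (42.8 to 66.7 per kb) in every group. PGRP-LF, a membrane protein that restrains Imd signalling, had 13.4 to 30.1 per kb. PGRP-LA, which modulates Imd signalling in barrier epithelia, was lowest with 1.41 to 12.8 per kb. The other 4 family genes of the table did not reach the tests. PGRP-SB2 averaged 9.56 normalised counts, with 1 library (fat body with ovaries labelled homozygous, replicate 2) at 55.0 and all others at 16.97 or below. PGRP-LD averaged 0.975 and PGRP-SC1b 0.380, and PGRP-SC1a had no read in any library, where 0 reads allow up to 2.34 to 4.59 normalised counts by counting error alone. On the same strand, 3563 exon bases of PGRP-LD, 90.0% of its total, are shared with Pmi, which averaged 0. Reads shared between genes could have been lost for PGRP-LD, PGRP-SC1a and PGRP-SC1b. The counts of these genes are therefore uncertain.

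**Figure D1:**
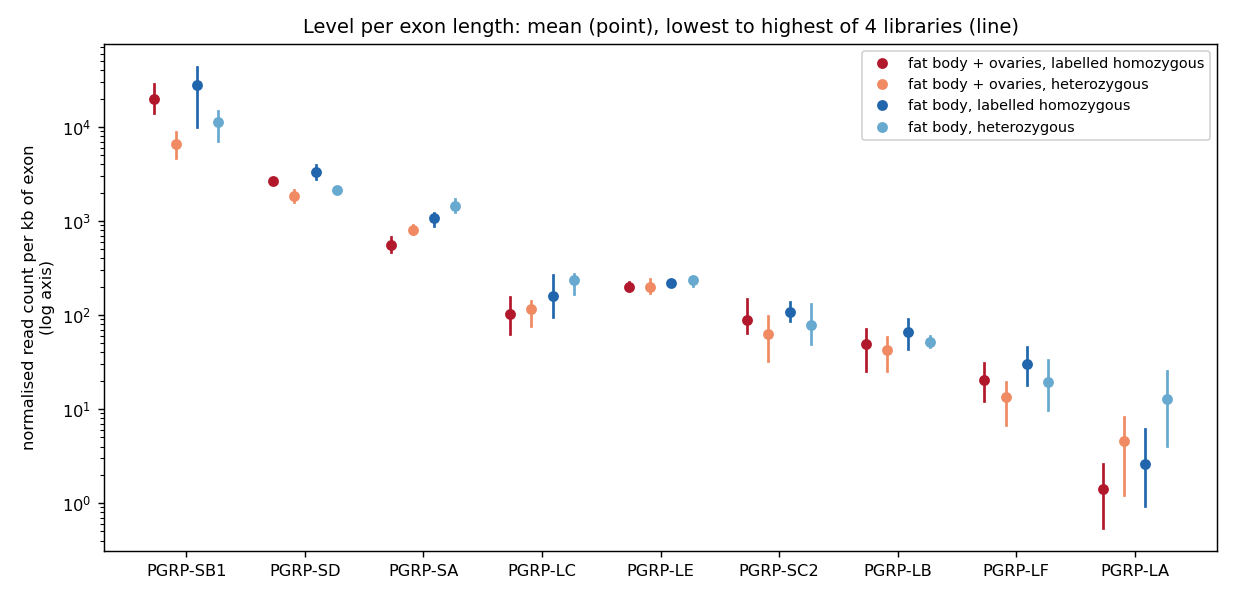
Normalised read counts per kb of exon (log axis) of the 9 genes, ordered by heterozygous fat body, with a point for the mean and a line for the lowest to highest of 4 libraries in each of 4 groups. The lowest library of PGRP-SB1 was at 4641 per kb, and the highest of PGRP-LA at 25.6 per kb.

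Fat body with ovaries was set against fat body alone in each genotype. All 9 fitted folds were below 0 in both genotypes in the deposited scaling, and PGRP-SA fell in both. With equal library totals only 5 of 9 were below 0 in either genotype, and the median log2 fold over all genes was then 0.37 in libraries labelled homozygous and 0.34 in heterozygotes, against -0.05 in either under the deposited scaling. Relative to the median of all genes, 9 of 9 were lower under both scalings in both genotypes. A change of scaling shifts all folds almost alike, so the second scaling is no separate support for this. The median log2 fold of the 9 was -0.46 in libraries labelled homozygous and -0.47 in heterozygotes, beside -0.52 and -0.48 for the fat body markers. In RNA of whole tissue the counts cannot tell fewer cells of a type from less RNA per cell. limma called 33.0% of all tested genes in this comparison in libraries labelled homozygous and 29.3% in heterozygotes, and 1 and 2 of the 9 members, all lower, where 13.2% and 10.7% of all genes were called lower. Groups did not overlap for 2 members in either genotype, beside 27.0% of all genes in libraries labelled homozygous and 32.9% in heterozygotes.

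PGRP-SA is the receptor that starts Toll signalling on peptidoglycan of Gram-positive bacteria. It had 693, 516, 472 and 598 normalised counts in fat body with ovaries labelled homozygous and 890, 1047, 1149 and 1250 in fat body labelled homozygous. In heterozygotes it had 739, 932, 738 and 860 where ovaries were included and 1273, 1333, 1472 and 1731 in fat body alone. Neither pair of groups overlapped. The log2 fold was -0.93 ± 0.14 (SE, n = 4 per group, limma adjusted p = 0.000118) in libraries labelled homozygous and -0.83 ± 0.14 (adjusted p = 0.000413) in heterozygotes, and all 27 alternative settings kept both calls (adjusted p from 7.27e-09 to 0.00683 and from 2.94e-07 to 0.0165).

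PGRP-LC, the main surface receptor of the Imd pathway, had 285, 459, 467 and 526 normalised counts in heterozygous fat body with ovaries and 624, 951, 905 and 1029 in heterozygous fat body, without overlap. Its log2 fold there was -1.02 ± 0.34 (adjusted p = 0.0334), the second of the calls in heterozygotes. That call ended at equal totals (-0.64, adjusted p = 0.137) and without any 1 of 6 libraries, which were replicates 1, 2 and 3 with ovaries and 2, 3 and 4 of fat body (adjusted p from 0.0501 to 0.105). In libraries labelled homozygous it had 236, 465, 249 and 580 where ovaries were included and 353, 591, 461 and 999 in fat body, and these groups overlapped. There the log2 fold was -0.65 ± 0.34 (adjusted p = 0.154). A block on replicate number took it past the threshold (adjusted p = 0.00694, the lowest of 27 settings that ran up to 0.637), where 48.0% of all genes were called. In libraries labelled homozygous each replicate number was lower with ovaries than without, in 4 of 4 pairs. The share of all genes with 4 of 4 pairs in one direction was not counted.

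PGRP-SD, which helps PGRP-SA in sensing, averaged 1909 ± 66.6 normalised counts with ovaries and 2397 ± 441 in fat body of libraries labelled homozygous (SD, n = 4 each), a log2 fold of -0.31 ± 0.12 (adjusted p = 0.0538). In heterozygotes it averaged 1330 ± 167 with ovaries and 1534 ± 70.7 without them (-0.21 ± 0.12, adjusted p = 0.185). Its call in libraries labelled homozygous passed in 7 of 27 settings, among them edgeR, DESeq2, the fit without fat body labelled homozygous replicate 1 and the fit without the outlying pair (-0.39, adjusted p = 0.0182, in a range of 0.0141 to 0.432), and its sign changed at equal totals in both genotypes. PGRP-LE, the Imd sensor inside the cell, had the smallest residual spread of the 9, 0.14 on the log2 scale. Its folds of -0.17 ± 0.10 (adjusted p = 0.231) in libraries labelled homozygous and -0.22 ± 0.10 (adjusted p = 0.116) in heterozygotes also changed sign at equal totals, where PGRP-LE was called higher in libraries labelled homozygous (0.26, adjusted p = 0.0246).

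The amidase genes passed no threshold between tissues when all 16 libraries were fitted by limma without a block. PGRP-SB1 averaged 12432 ± 3791 with ovaries and 17450 ± 8536 in fat body of libraries labelled homozygous (log2 fold -0.36 ± 0.38, adjusted p = 0.495), and 4090 ± 1168 with ovaries and 6959 ± 1984 without in heterozygotes (-0.76 ± 0.38, adjusted p = 0.146). The fat body group labelled homozygous held its lowest library, replicate 1, at 6254, against 17815 to 27014 in the other 3. Without that library the fold in libraries labelled homozygous was -0.79 (adjusted p = 0.0398) and without it and heterozygous fat body replicate 2 it was -0.79 as well (adjusted p = 0.0345). The heterozygous fold of -0.76 also passed without fat body labelled homozygous replicate 1 (adjusted p = 0.0388, in a range of 0.0243 to 0.460 over 27 settings). PGRP-SC2, known best from the gut, had log2 folds of -0.34 ± 0.37 in libraries labelled homozygous and -0.31 ± 0.37 in heterozygotes. PGRP-LB, whose product clears peptidoglycan and so limits Imd signalling, had -0.46 ± 0.32 and -0.33 ± 0.32. The regulators PGRP-LF (-0.54 ± 0.41 and -0.47 ± 0.41) and PGRP-LA (-0.53 ± 0.69 and -1.30 ± 0.69) did not pass either, and the opposite gene UGP stood at -0.53 ± 0.24 and -0.41 ± 0.24.

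**Figure D2:**
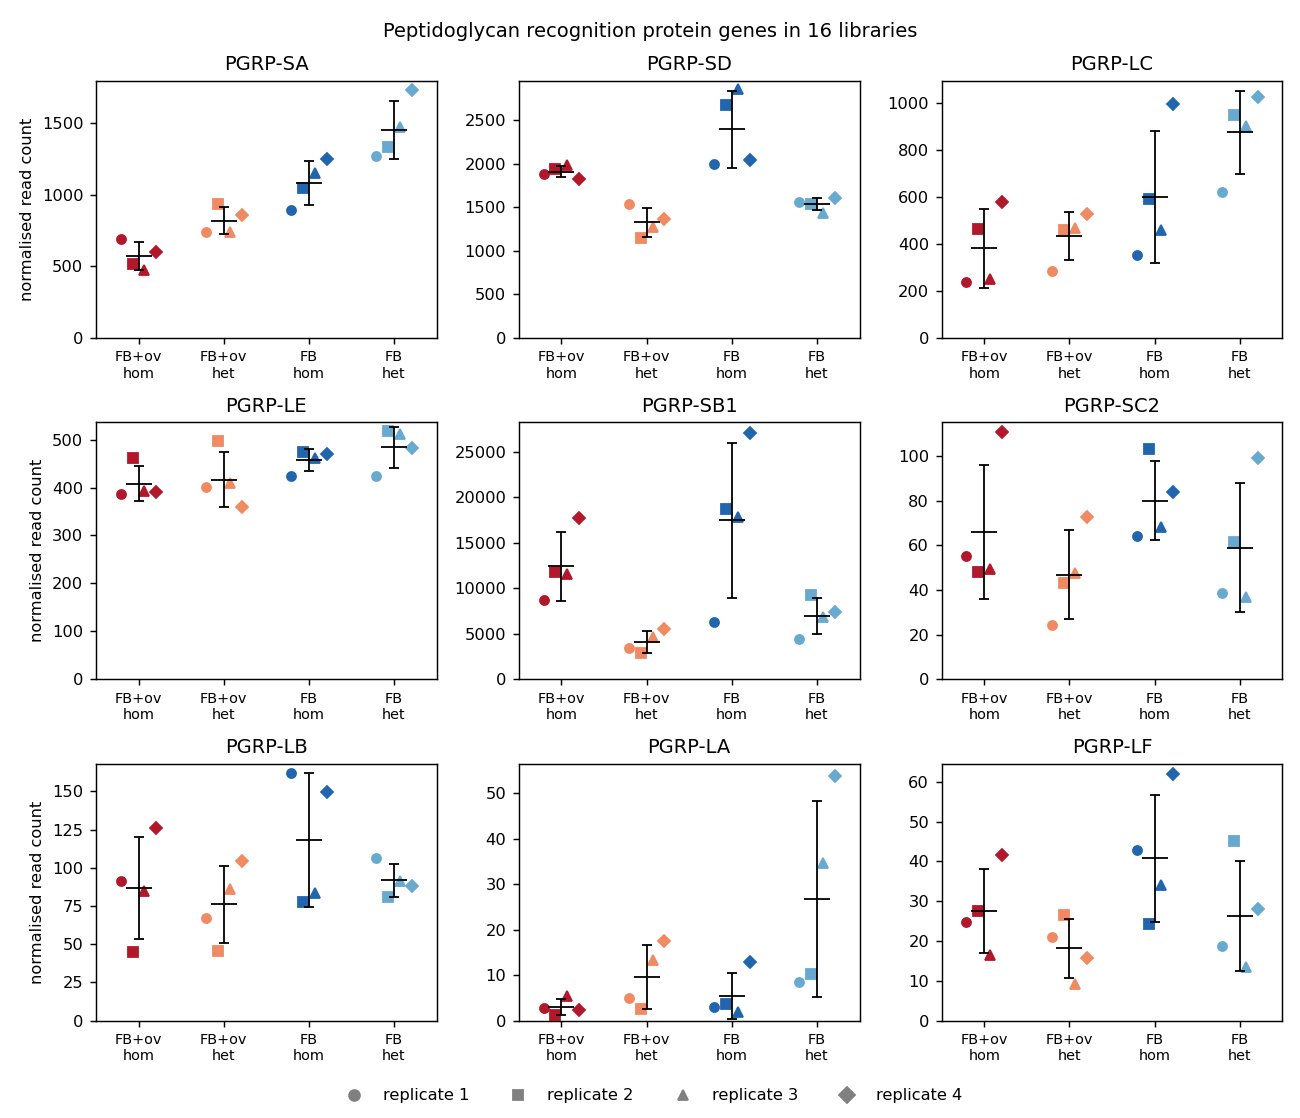
Normalised read counts of the 9 genes in 16 libraries, 1 panel per gene with its own linear axis from 0, by group (FB is fat body, ov is ovaries, hom is labelled homozygous, het is heterozygous). Symbols are replicate numbers, and bars give the mean ± SD of 4 libraries. PGRP-SA did not overlap between tissues within a genotype or between genotypes within a tissue, and PGRP-SB1 had its 3 highest libraries in fat body labelled homozygous.

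Libraries labelled homozygous were then set against heterozygous ones within each tissue. PGRP-SD rose in both tissues and PGRP-SB1 rose in fat body with ovaries, and limma on all 16 libraries without a block called no member lower in the deposited scaling. limma called 2.11% of all tested genes with ovaries and 5.39% in fat body, and 2 and 1 of the 9 members, all higher, where 0.92% and 2.29% of all genes were called higher. Groups did not overlap for 3 members with ovaries and 2 in fat body, beside 12.1% and 9.55% of all genes. The 2 comparisons share no library but cannot be taken as independent, since both tissues hold fat body. Deviations of same-number libraries correlated between tissues at 0.198 to 0.61 labelled homozygous and at 0.015 to 0.284 in heterozygotes. In both comparisons 5 members were higher and 4 lower, so all 9 kept their direction, as 75.9% of all tested genes did. The median log2 fold of the 9 was 0.16 with ovaries and 0.29 in fat body, beside -0.00263 and -0.00222 for all genes.

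PGRP-SB1, whose product is an amidase with bactericidal activity in vitro, had the largest positive fold of the 9 in either tissue. It had 8662, 11816, 11550 and 17700 normalised counts in fat body with ovaries labelled homozygous and 3391, 2891, 4613 and 5466 in heterozygous fat body with ovaries. Every library labelled homozygous was above every heterozygous one, and the means differed 3.04-fold (log2 fold 1.60 ± 0.38, SE, adjusted p = 0.0427). In fat body it had 6254, 18716, 17815 and 27014 in libraries labelled homozygous and 4404, 9210, 6821 and 7400 in heterozygous ones. These groups overlapped through replicate 1 of the libraries labelled homozygous (log2 fold 1.20 ± 0.38, adjusted p = 0.0845). Each replicate number was higher in the library labelled homozygous in 4 of 4 pairs, a pattern not counted over all genes. Blocked by replicate number, the fat body fold passed (adjusted p = 0.00771, in a range of 0.00418 to 0.267 over 27 settings), where 15.1% of all genes did, and without replicate 1 of the libraries labelled homozygous it was 1.63 (adjusted p = 0.00418). Without the outlying pair it was 1.78 (adjusted p = 0.00466), and DESeq2 called it as well (adjusted p = 0.0068). Replicate 1 of fat body labelled homozygous was the lowest of its group for PGRP-SB1, so the fits without it are no separate support. The call with ovaries was lost when any 1 of the 8 compared libraries was left out (adjusted p from 0.0664 to 0.128, folds from 1.41 to 1.76). It was also lost when fat body labelled homozygous replicate 2 or 3 or heterozygous fat body replicate 2, 3 or 4 was left out (adjusted p from 0.0510 to 0.0620), and when genes were not filtered (adjusted p = 0.0518).

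PGRP-SD had 1883, 1943, 1980 and 1829 normalised counts in fat body with ovaries labelled homozygous and 1540, 1144, 1270 and 1367 in heterozygous fat body with ovaries. In fat body it had 1995, 2680, 2865 and 2048 in libraries labelled homozygous and 1561, 1536, 1436 and 1602 in heterozygous ones. The genotypes did not overlap in either tissue. With ovaries the log2 fold was 0.53 ± 0.12 (adjusted p = 0.0328). Fat body alone gave 0.63 ± 0.12 (adjusted p = 0.00638). In fat body the call was kept in 26 of 27 settings and lost when only the 8 libraries compared were fitted (adjusted p = 0.0815). With ovaries it was kept in 20 of 27 and lost without any 1 of the 4 libraries labelled homozygous or of heterozygous replicates 2, 3 and 4 (adjusted p from 0.0629 to 0.105). The opposite gene CG7492 stood at 0.12 ± 0.08 with ovaries and 0.20 ± 0.08 in fat body.

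PGRP-SA had its lower values in libraries labelled homozygous and passed in 5 of 27 alternative settings with ovaries and 2 of 27 in fat body. It did not pass by limma with all libraries, the deposited scaling and no block. Its values, given above, did not overlap between genotypes in either tissue. With ovaries its log2 fold was -0.53 ± 0.14 (adjusted p = 0.0706), and fat body gave -0.42 ± 0.14 (adjusted p = 0.0984). Under the replicate block, where 8.44% of all genes were called with ovaries, it was called lower in both (adjusted p = 0.0286, in a range of 0.0148 to 0.213 over 27 settings, and 0.0473, in a range of 0.0320 to 0.267). At equal totals it was also called lower in both. With ovaries DESeq2 (adjusted p = 0.0148), the fit without fat body labelled homozygous replicate 1 (adjusted p = 0.0412) and the fit without the outlying pair (adjusted p = 0.0493) called it lower too. Each replicate number was lower in the library labelled homozygous in 4 of 4 pairs in both tissues, which the lack of overlap already fixes.

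PGRP-LA had few reads. It had 2.86, 1.15, 5.46 and 2.35 normalised counts in fat body with ovaries labelled homozygous and 5.03, 2.58, 13.3 and 17.4 in heterozygous fat body with ovaries. In fat body it had 3.06, 3.64, 1.95 and 13.0 in libraries labelled homozygous, from 2, 3, 2 and 13 reads, and 8.49, 10.2, 34.5 and 53.7 in heterozygous ones. The groups overlapped, and each pair of equal number was lower in the library labelled homozygous, 4 of 4 in both tissues. This pattern was not counted over all genes, and it rests on few reads. The log2 folds of -1.25 ± 0.69 (adjusted p = 0.487) with ovaries and -2.02 ± 0.69 (adjusted p = 0.111) in fat body did not pass. The fat body one passed with the block (adjusted p = 0.0246, in a range up to 0.299) and with DESeq2 (adjusted p = 0.0475). Its neighbour PGRP-LC stood at -0.25 ± 0.34 with ovaries (adjusted p = 0.836). In fat body it stood at -0.63 ± 0.34 (adjusted p = 0.333), a fold called with the block (adjusted p = 0.0248, in a range up to 0.664). PGRP-LF, the third gene of that cluster, stood on the other side at 0.60 ± 0.41 and 0.67 ± 0.41, not called, and UGP on its opposite strand at -0.49 ± 0.24 and -0.38 ± 0.24. PGRP-LF ranged over 16.4 to 41.6 normalised counts (labelled homozygous) and 9.13 to 26.6 (heterozygous) with ovaries, and over 24.3 to 61.9 and 13.4 to 45.0 in fat body. All of these groups overlapped.

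The remaining 3 members passed no setting between genotypes. PGRP-SC2 ranged over 48.1 to 110.6 normalised counts in fat body with ovaries labelled homozygous and 24.1 to 72.6 in heterozygous fat body with ovaries, and over 64.3 to 103 in fat body labelled homozygous and 36.8 to 98.9 in heterozygous fat body. PGRP-LB ranged over 44.7 to 126 and 45.5 to 105 with ovaries (labelled homozygous and heterozygous), and over 77.7 to 162 and 80.8 to 107 in fat body. Both genes overlapped between genotypes in either tissue. As log2 folds, PGRP-SC2 had 0.49 ± 0.37 in the libraries with ovaries and 0.52 ± 0.37 in fat body, PGRP-LB 0.16 ± 0.32 and 0.29 ± 0.32, and PGRP-LE -0.02 ± 0.10 and -0.08 ± 0.10. PGRP-LE averaged 408 ± 36.5 and 416 ± 57.9 normalised counts with ovaries (labelled homozygous and heterozygous) and 457 ± 22.8 and 484 ± 43.2 in fat body. Genes on chromosome 3 were called more often between genotypes than others, 3.55% against 1.03% with ovaries and 8.11% against 3.26% in fat body. PGRP-SB1 and PGRP-SD both lie on arm 3L, and an effect of the delta1 allele cannot be told apart from one of the balancer chromosome. Of the 10 tested genes nearest to PGRP-SD, 5 on each side, 0 were called by limma in either tissue, and of those nearest to PGRP-SB1 Nrt was called with ovaries and Dab, Dbp73D and CG9705 in fat body. Of 8 such genes around PGRP-LC, Slc45-1 and CG32039 were called with ovaries and bol, CG32039 and Pdxk in fat body. The fat body markers had a median of 0.23 with ovaries and 0.09 in fat body with 0 of 11 called, and their part in the folds of the members was not tested.

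**Figure D3:**
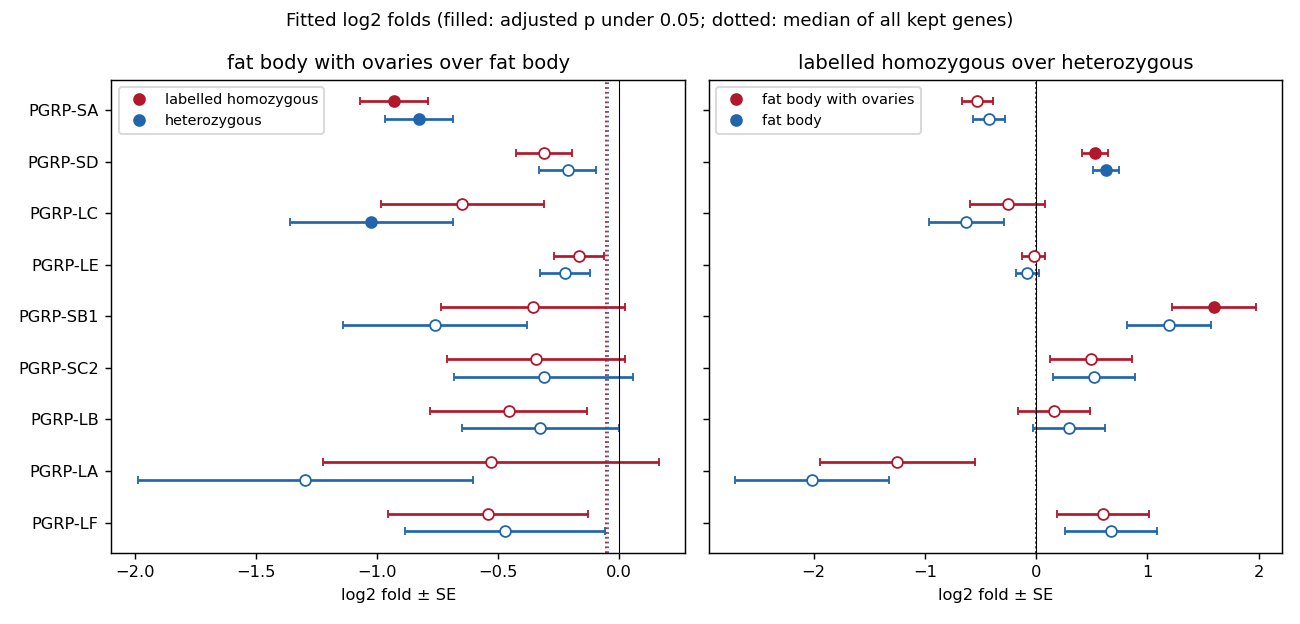
Fitted log2 folds ± SE of the 9 genes for fat body with ovaries over fat body (left) and labelled homozygous over heterozygous (right). Filled points passed an adjusted p of 0.05, and dotted lines mark the median of all 7824 tested genes. The tissue folds all lie below 0, while the genotype folds run from -2.02 for PGRP-LA in fat body to 1.60 for PGRP-SB1 with ovaries.

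Whether the effect of genotype differed between the tissues was tested by the interaction, in which the heterozygous tissue fold is subtracted from that of libraries labelled homozygous. limma called 0 of the 9 members and 0.0511% of all genes. At an unadjusted p under 0.05 the count for the members was also 0, as it was after adjustment with edgeR and DESeq2. The estimates ran from -0.13 ± 0.46 for PGRP-LB to 0.77 ± 0.98 for PGRP-LA, and that of PGRP-SB1 was 0.41 ± 0.54, so the width of these errors limits what could be seen. The call of PGRP-SB1 with ovaries and its absence in fat body therefore do not show a difference between tissues.

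Libraries with the same replicate number deviated together in several of these genes. For PGRP-LC, replicate 1 was the lowest and replicate 4 the highest in 4 of 4 groups, with mean deviations from the group means of -0.57 and 0.53 on the log2 scale. Both held for 28 of the 7824 tested genes, 0.358%. Taken singly, replicate 1 was lowest in 4 groups for 7.72% of all tested genes and replicate 4 highest for 2.17%. PGRP-LB was lowest in replicate 2 in 4 of 4 groups (-0.55), and PGRP-LE was highest in replicate 2 in 4 of 4 (0.15). PGRP-SB1 was lowest in replicate 1 in 3 groups (-0.65) and highest in replicate 4 in 3 (0.49). PGRP-SC2 was highest in replicate 4 in 3 groups as well (0.63). Replicate 4 held the highest value for 5 of the 9 members in each group. The share over all genes was not counted for this, nor for the patterns of PGRP-LB, PGRP-LE, PGRP-SB1 and PGRP-SC2. pirk, which encodes an inhibitor of PGRP-LC signalling and was picked out after its values were seen, had its highest values in replicate 4 of both groups labelled homozygous. There it stood at 428 with ovaries, against 12.4 to 21.8 in replicates 1 to 3, and at 673 in fat body, against 6.12 to 51.6. In heterozygotes pirk stood at 25.8 to 72.2 with ovaries and 92.4 to 362 in fat body, with its highest value in replicate 3 of either tissue. None of its folds passed the test.

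**Figure D4:**
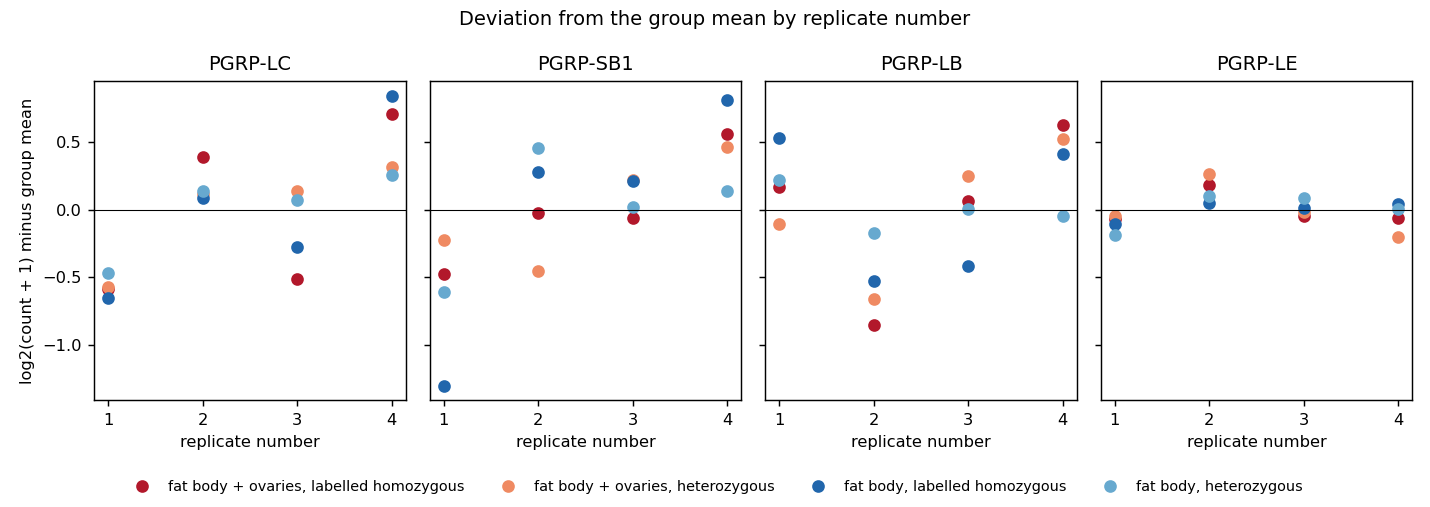
Deviation of log2(normalised count + 1) from the group mean, by replicate number, for PGRP-LC, PGRP-SB1, PGRP-LB and PGRP-LE, with colours for the 4 groups. For PGRP-LC all 4 points of number 1 are the lowest and all 4 of number 4 the highest of their groups, and PGRP-LB is lowest in number 2 in every group.

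The genes downstream of these proteins were read in the same libraries. Of 18 Imd pathway genes, 1 was higher and 4 were lower with ovaries in libraries labelled homozygous, and 1 was higher and 3 were lower in heterozygotes. These 5 and 4 of 18 are no larger a share than the 33.0% and 29.3% of all genes called. POSH, a ubiquitin ligase that tunes Imd signalling, was the higher one (1.19 ± 0.14 and 1.41 ± 0.14, adjusted p = 8.23e-06 and 1.85e-06). The ubiquitin protease genes trbd (-0.48 ± 0.08 and -0.33 ± 0.08) and scny (-0.19 ± 0.06 and -0.34 ± 0.06) and the Relish inhibitor gene casp (-0.31 ± 0.07 and -0.27 ± 0.07) were lower in both genotypes, and the adaptor gene Fadd was lower in libraries labelled homozygous (-0.33 ± 0.11). At equal totals 5 Imd genes, POSH among them, were higher and 0 lower in either genotype, and scny was one of the higher ones in libraries labelled homozygous. Of all 7824 tested genes 3634 were then called higher in libraries labelled homozygous and 3432 in heterozygotes, so 5 of 18 is no larger a share.

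Of 18 Toll pathway genes 6 fell with ovaries in libraries labelled homozygous and 3 fell in heterozygotes in the deposited scaling, and 0 rose, beside 13.2% and 10.7% of all genes called lower. The receptor gene Tl (-0.52 ± 0.13 and -0.51 ± 0.13), the kinase gene pll (-0.45 ± 0.14 and -0.41 ± 0.14) and the protease gene grass (-0.53 ± 0.14 and -0.49 ± 0.14) were lower in both genotypes. The protease gene Hayan (-0.65 ± 0.17), the serpin gene nec (-0.50 ± 0.17) and the adaptor gene tub (-0.30 ± 0.11) were lower in libraries labelled homozygous. At equal totals 0 of the 18 were called and 9 of 18 folds were below 0 in either genotype. Under both scalings 18 of 18 lay below the median of all genes, a position that a change of scaling hardly moves. With the replicate block 12 fell in libraries labelled homozygous, where 48.0% of all genes were called in either direction.

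Between genotypes 0 of 18 Imd genes and 0 of 18 Toll genes were called by limma in either tissue. At an unadjusted p under 0.05 the counts with ovaries were 3 Imd and 2 Toll genes, and those in fat body alone 2 Imd and 0 Toll genes. edgeR called none of them, DESeq2 called the Imd gene Uev1A lower in both tissues, and the block called Uev1A lower in both and the Toll sensor GNBP1 lower with ovaries. The median Imd fold was -0.01 with ovaries and -0.02 in fat body, and the median Toll fold was -0.11 and -0.06. The deposited values hold 20 genes of the antimicrobial peptide list, of which 12 were tested. Without a block limma called no antimicrobial gene between tissues (0 in either genotype, 1 in each at an unadjusted p under 0.05). edgeR and limma with the block called Drsl5 lower with ovaries in libraries labelled homozygous, and DESeq2 called Drsl5 there and AttA and AttB lower in heterozygotes. Between genotypes 1 fell in both tissues, edin, a peptide gene induced by infection. edin had 0.953, 0, 2.34 and 2.35 normalised counts with ovaries in libraries labelled homozygous and 6.03 to 37.0 in heterozygous ones, and 1.53 to 5.85 in fat body labelled homozygous against 12.3 to 54.6 in heterozygous fat body. The genotypes did not overlap. Its log2 fold was -2.99 ± 0.62 with ovaries (adjusted p = 0.0229). In fat body it was -3.37 ± 0.62 (adjusted p = 0.0056). DESeq2 and the block also called Drsl2 lower in both tissues, and Drsl5 was called lower by the block in both and by DESeq2 with ovaries. The genes edin, Drsl2, Drsl5, Uev1A and GNBP1 all lie on arm 3L, as dLmx1a does. For these too an effect of the delta1 allele cannot be told apart from one of the balancer chromosome. The median fold of the 12 was -0.08 with ovaries and -1.41 in fat body.

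**Figure D5:**
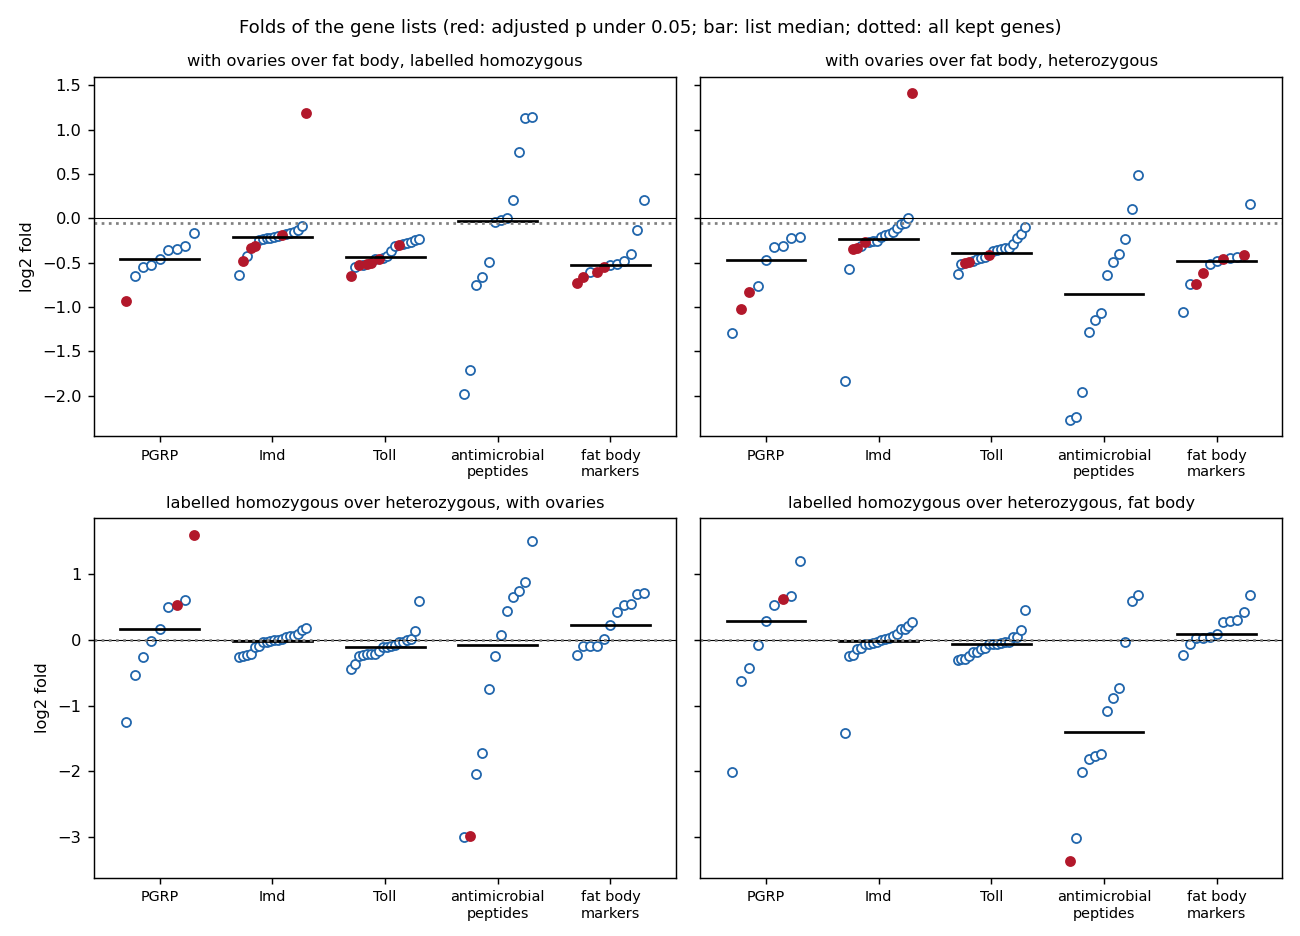
Log2 folds of each tested gene of the 9 PGRP genes, 18 Imd, 18 Toll, 12 antimicrobial peptide and 11 fat body marker genes in the 4 comparisons, with red for an adjusted p under 0.05, a bar for the median of the list and a dotted line for the median of all tested genes. Between tissues the PGRP and Toll genes lie below 0 in the deposited scaling, and between genotypes edin is the called gene of the antimicrobial peptide list.

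Genes with the most similar profile were sought for the 3 members whose group means spread widest, by the root mean square difference of log2 profiles centred over the 16 libraries, where a smaller value is closer. Nearest to PGRP-SB1 were CG5282 (0.35), Cad88C (0.35) and CG7886 (0.37), while the median over all genes was 0.98 and the spread of PGRP-SB1 itself 0.91. CG5282 averaged 98.7 normalised counts with ovaries labelled homozygous and 31.0 in heterozygotes, and 155 in fat body labelled homozygous and 48.1 in heterozygous fat body. Nearest to PGRP-SA were CG2611 (0.21), Cyp9h1 (0.22) and vsg (0.22), with a median over all genes of 0.61. Nearest to PGRP-LA were CG10005 (0.59), sfl (0.64) and Dyrk2 (0.68), with a median of 1.34. These closest genes share the 16 libraries and their scaling with the members.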

How the data were processed

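RNA of 16 libraries was analysed, 4 per group, grouped by sample title. The submitters' processing notes name Trimmomatic 0.36, STAR 2.5.2b, featureCounts from Subread 1.5.0p3 and the build dm6. How genes were annotated, whether strand was used and how reads mapping more than once were treated was not given in the sources used here. The deposited table holds a signal of gene counts divided by a size factor per library, and its name gives DESeq2. Dividing by what 1 read is worth gave whole numbers for 100% of the values above 0 (tolerance 1e-06), and these served as reads. In 2 libraries that value is so close to 1 that an automatic test could not judge. Limits for 0 reads use 3 reads and cover counting error only.

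Genes with a mean of at least 10 were taken to log2(value + 1) and fitted with limma 3.58.1 (R 4.3.3), 1 mean per group over 16 libraries, trend, 2-sided, Benjamini-Hochberg adjustment over 7824 genes at 0.05. Folds are on that log2 scale, which understates changes of low genes. Group means are given with their SD. The alternatives were edgeR 4.0.16 and DESeq2 1.42.0 on recovered reads, other scalings, pseudocounts of 0.5 and 5, no filter or a mean of 50, fewer libraries and the replicate number as a block. limma, edgeR and DESeq2 were tested on simulated data.

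Replicate numbers pair libraries where every same-number correlation of deviations exceeded 0.1. They were 0.61, 0.424, 0.198 and 0.476 between tissues labelled homozygous, 0.253, 0.417, 0.173 and 0.415 between genotypes with ovaries, and 0.676, 0.385, 0.291 and 0.213 in fat body. In heterozygotes between tissues they were 0.284, 0.015, 0.04 and 0.225, so the numbers do not pair there. Exon lengths, positions and overlaps came from Ensembl's annotation of the same assembly (BDGP6, dm6 coordinates), and 7734 tested genes were placed. Some list symbols were matched through RefSeq synonyms. The members, the lists and the rule for named genes (all members, list genes past the test, and the nearest profiles) were chosen with earlier results of these data known.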

Additional observations from a re-analysis of the deposited data

Results flagged for a closer look

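In groups of 4, a library whose gap to the nearest other exceeded Dixon's 95% critical share of the group's range was singled out. Of 36 groups examined (9 genes in 4 groups), 3 met this, and about 1 in 20 would by chance. PGRP-SC2 in fat body with ovaries labelled homozygous had 110.6 normalised counts in replicate 4, against 48.1 to 55.3 in the other 3. PGRP-LA in fat body labelled homozygous had 13.0 in replicate 4, against 1.95 to 3.64. PGRP-LE in fat body with ovaries labelled homozygous had 463 in replicate 2, against 387 to 393. No interaction of a member passed the test, so no difference of effect between tissues was singled out.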

How the results depend on the processing

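The 9 members' folds were recomputed 1196 times over the alternatives, of which 1099 kept direction and side of the threshold, 29 lost a call, 28 gained one and 40 changed sign. Only 1 of the sign changes was a called value, PGRP-LE between tissues labelled homozygous at equal totals. The cause was not tested beyond what each setting removes. The counts for all genes were 2579, 2295, 165, 422 and 4 between tissues labelled homozygous, between tissues in heterozygotes, between genotypes with ovaries, between genotypes in fat body, and for the interaction. For the members they were 1, 2, 2, 1 and 0.

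At equal totals members called were 2 between tissues labelled homozygous, 1 in heterozygotes and 2 between genotypes in fat body, all genes called were 3496 between tissues in heterozygotes (3432 higher and 64 lower, against 1458 and 837) and 0 for the interaction. Between tissues labelled homozygous 3634 were higher and 39 lower there, against 1547 and 1032, and in fat body between genotypes 69 and 427, against 179 and 243. With ovaries between genotypes they were 52 and 156, against 72 and 93. Folds that turned at equal totals were PGRP-SD 0.12, PGRP-SB1 0.073, PGRP-SC2 0.082 and PGRP-LE 0.26 labelled homozygous, PGRP-SD 0.18, PGRP-SC2 0.068, PGRP-LB 0.059 and PGRP-LE 0.17 in heterozygotes, and the interaction of PGRP-SC2 0.014.

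With the replicate block members called were 2 between tissues labelled homozygous, 4 in heterozygotes (where the numbers do not pair) and 5 between genotypes in fat body, and all genes called were 3531 between tissues in heterozygotes, 660 with ovaries, 1178 in fat body and 0 for the interaction. In heterozygotes the block also called PGRP-SB1 and PGRP-LE lower, and AttB and Drsl5 among antimicrobial genes, and 2 of the 4 numbers correlated best with their own there. It changed no other member's call between genotypes or tissues than those named in the text. edgeR called 2 members between tissues labelled homozygous and gave the PGRP-SC2 interaction as 0.078. It also called 2409 of the 2579 genes counted above there, and DESeq2 called 2554 of them. DESeq2 called 2 members there, 3 (PGRP-SA, PGRP-SD and PGRP-SB1) between genotypes with ovaries and 3 in fat body, 416 genes with ovaries, 746 in fat body and 20 interactions, with the PGRP-SC2 interaction at 0.052. With only the compared libraries 76 genes and 0 members were called in fat body. Without a filter 1 member was called with ovaries and 1 interaction, and 0 interactions passed at a mean of 50 or a pseudocount of 0.5. Of the 165 genes counted above with ovaries, 116 stayed called without a filter. Leaving out both outlying fat body libraries, 3 members were called between tissues labelled homozygous, 264 genes with ovaries and 2 members in fat body, and the interactions of PGRP-SB1, PGRP-LB and PGRP-LE were -0.18, 0.10 and -0.012. Of all genes, 2406 of the 2579 between tissues labelled homozygous and 238 of the 422 between genotypes in fat body then stayed called. At an unadjusted p under 0.05, limma without the pair passed 4068 and 1505 of the 7824 tested genes in these comparisons. The 3 and 2 members are therefore not read as an excess.

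Leaving out each library in turn gave 2072 to 3316, 1689 to 2741, 60 to 264, 201 to 489 and 0 to 7 called genes in the order above, and 1 to 3, 1 to 3, 0 to 3, 1 to 2 and 0 to 0 members. Folds that turned in these fits ran from -0.057 to 0.45 for PGRP-LB and -0.090 to 0.065 for PGRP-LE between genotypes with ovaries, and as interactions from -0.35 to 0.15 for PGRP-LB, -0.0099 to 0.15 for PGRP-LE, -0.37 to 0.19 for PGRP-LF, -0.028 to 0.68 for PGRP-SB1 and -0.31 to 0.21 for PGRP-SC2. Depth limits PGRP-LA most, with 1 to 50 reads per library.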
